A study of Homo sapiens with 6 samples.

Results

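The genes described here encode the proteases, coat proteins and proton pump of the lysosome: the cathepsins, the membrane proteins LAMP1, LAMP2 and the LAPTM family, and the subunits of the vacuolar ATPase (V-ATPase). They were taken by symbol from the deposited table, by the name patterns ATP6V0 or ATP6V1 plus letters, CTS plus 1 letter, LAMP1 or LAMP2, and LAPTM4A, LAPTM4B or LAPTM5. This gave 40 genes of 15832: 20 V-ATPase subunits, 14 cathepsins, 5 membrane proteins and ATP6V1FNB, a neighbour of ATP6V1F that matched by its name and is no pump subunit. Expression was measured by RNA sequencing in AsPC-1, a human pancreatic cancer cell line. Cells had been transfected 48 h earlier with siRNA, either a control (siControl, 3 libraries) or one directed at VCPIP1, a deubiquitinase and partner of the ATPase p97/VCP (siVCPIP1, 3 libraries). The labels name 1 cell line and 1 siRNA condition per group, and do not say whether replicates were separate cultures, so the p-values rest on a spread between libraries that may be only technical.

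The lysosome is the acidic compartment in which cells degrade proteins, lipids and sugars taken up from outside or delivered by autophagy. The V-ATPase keeps it acidic: a peripheral sector, V1, hydrolyses ATP and turns a ring in a membrane sector, V0, through which protons pass. Cathepsins are made as inactive precursors that mature in this acid, and LAMP1 and LAMP2 are heavily glycosylated proteins that line the membrane. Many lysosomal genes carry the CLEAR element in their promoters, a site built around CACGTG that is bound by TFEB and its relatives, and pancreatic cancers are known for relying on lysosomal degradation.

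To show that element, the 250 bases before each gene's start were read from RefSeq (GRCh38.p14) for the 25 of 40 genes that have a window in its table. CACGTG, which reads the same on both strands, was found in 8 of the 25 (32%), against 6.49% of the 27305 promoters in the table. Among tested genes only, it was found in 7 of 20 (35%), against 9.05% of 8870 promoters. All 8 of the 25 also held the longer TCACGTG, searched on both strands and overlapping the shorter motif. The longer motif was held by 3.38% of promoters in the table and 5.32% of those of tested genes. LAMP1 had 5 copies, and its window, chr13:113296989-113297238 on the plus strand, is printed whole with the copies in capitals.
LAMP1: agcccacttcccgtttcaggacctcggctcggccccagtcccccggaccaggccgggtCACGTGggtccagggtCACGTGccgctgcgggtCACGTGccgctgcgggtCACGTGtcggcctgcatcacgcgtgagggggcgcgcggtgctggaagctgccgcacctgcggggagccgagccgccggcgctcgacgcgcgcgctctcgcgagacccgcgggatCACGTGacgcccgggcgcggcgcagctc
For 6 other genes the 30 bases around the copy nearest to the start are shown, 5′ to 3′ on the gene's strand, because genes with this motif differed in how they changed.
CTSD: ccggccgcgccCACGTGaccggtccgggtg
ATP6V0D1: ccccttatggtCACGTGaggcgcttgcgcg
ATP6V0E2: cccttctgcatCACGTGgggactgcgcctc
ATP6V0B: taccggcgcatCACGTGggcgagttaggtg
CTSA: gcgccggagttCACGTGactcgtacacatg
ATP6V1G1: cgctgtgcggtCACGTGacaacgggggcga
Counted from the RefSeq start, the copies lay 47 bases before it in CTSD, 59 in ATP6V0D1 and 72 in ATP6V0E2. They lay 39 bases before it in ATP6V0B, 25 in CTSA and 58 in ATP6V1G1. By the GENCODE gene positions, which can begin further upstream, the copies of CTSD, ATP6V0D1, ATP6V0B and CTSA lie inside the gene. For 19 of the 25 windows, the bases after the RefSeq start lay in a GENCODE transcript of the gene. Which start these cells use was not tested. A match is a description of letters and not a site shown to be bound.

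The 2 groups of libraries differed in their whole distribution of TPM, a length-scaled share of transcripts, which bears on every value below. The median TPM over all genes was 6.18 to 7.44 in siControl and 1.24 to 2.26 in siVCPIP1, with siVCPIP1 replicate 3 the highest of its group. Read depth is unknown, since TPM does not keep it. VCPIP1 itself averaged 2.74 ± 0.441 TPM in siControl against 0.167 ± 0.0896 TPM in siVCPIP1 (SD, n = 3 each; log2 fold change -1.68, limma, adjusted p = 2.0e-05), a difference that became 0.27 (adjusted p = 0.065) with GC content and length corrected for. The epithelial markers EPCAM, CDH1, KRT8, KRT18 and KRT19 were all tested, and they summed to 13807 to 15918 TPM in siControl and 20918 to 23711 TPM in siVCPIP1. Of these, the keratins rose and EPCAM and CDH1 fell. Of 5 fibroblast markers, only LUM was tested, and it fell. The list summed to 45.3 to 69.0 TPM in siControl and 1.5 to 4.51 TPM in siVCPIP1, with DCN at 0.00 to 0.08 TPM throughout. With only 1 marker tested, the list does not show that fibroblasts were present. Markers found in the table summed in any library to at most 1.33 TPM for leukocytes (4 of 6 markers), 1.30 TPM for endothelium (2 of 4) and 1.6 TPM for osteoclasts (2 of 4). Of these, only OSCAR, an osteoclast receptor, passed the filter on low values, and it was not called. The part of the LUM change in these results was not tested. In bulk RNA, fewer cells of a type and less RNA per cell cannot be told apart.

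Genes averaging 1 TPM or more across the 6 libraries were tested on log2(TPM + 1) with limma, and 29 of the 40 passed this filter. Because the distributions differed, changes were also computed on a median-of-ratios scale, which centres the typical gene of each library, on quantile-normalized values, which give every library the same distribution, and with the trend of each library on transcript GC content and length removed. Of the 29, 21 (72.4%) had lower and 4 (13.8%) higher TPM in siVCPIP1 at an adjusted p under 0.05, where 66% of all 10966 genes tested were lower and 15% higher. The 4 that rose were CTSD, ATP6V0D1, ATP6V0E2 and ATP6V1F, and ATP6V0A1, ATP6V0B, ATP6V0C and CTSH were not called. For the 29, the median log2 fold change was -1.70, against -1.12 for all genes tested. The groups did not overlap in 25 of the 29 (86.2%), where the same held for 86% of all genes tested, so that share is that of the background. In each of the 21 genes that fell, siVCPIP1 replicate 3 was the highest of its group. That library also had the highest median TPM of its group over all genes, 2.26 against 1.26 and 1.24. The share of all genes in which it was highest was not computed. Without that library 22 were lower and 4 higher (75.9% and 13.8%), beside 71.1% and 16.7% of all genes tested.

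**Figure D1:**
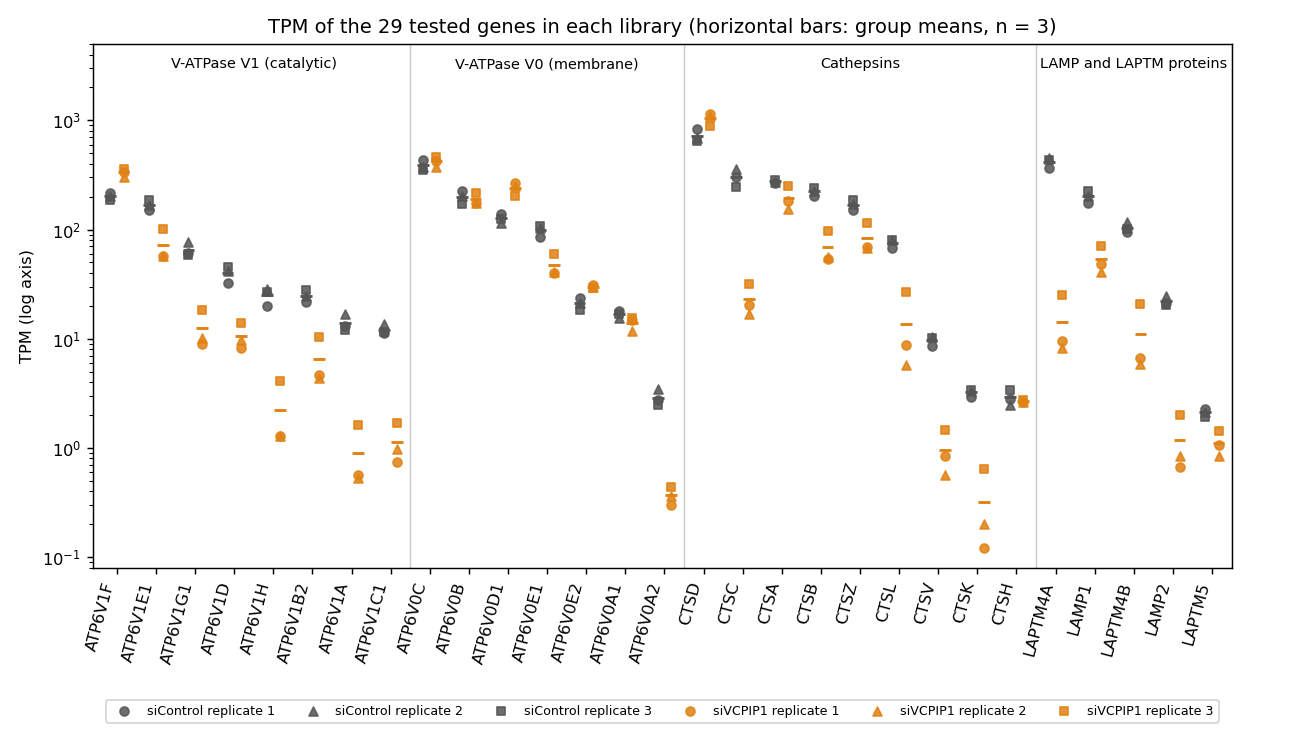
TPM (log axis) of the 29 tested genes in each of the 6 libraries, grouped by role and ordered by siControl mean. Points are libraries and horizontal bars are group means (n = 3). The membrane proteins on the right all lie lower in siVCPIP1, while CTSD, ATP6V0D1, ATP6V0E2 and ATP6V1F lie higher.

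The membrane proteins fell furthest. All 5 (100%) were lower in siVCPIP1, beside 66% of all genes tested (median log2 fold change -3.32, against -1.12 for all genes). On the median-of-ratios scale 4 were lower and 0 higher, where 45.1% and 40.3% of all genes were. On quantile-normalized values 4 were lower and 1 higher, where 38.8% and 42.2% of all genes were. LAPTM5 was the exception both times. LAPTM4A (ENSG00000068697.6, chromosome 2, 20032650 to 20052028, minus strand, GRCh38), a small protein spanning the membranes of late endosomes and lysosomes, had 365.09, 456.17 and 436.89 TPM in siControl and 9.53, 8.21 and 25.01 TPM in siVCPIP1. Every siVCPIP1 library lay far below every control. The siControl mean of 419 ± 48.0 TPM fell to 14.25 ± 9.34 TPM (SD, n = 3), 3.40% of the control level (log2 fold change -4.94, SE 0.35, limma, adjusted p = 2.0e-05). No other gene of the 29 changed by as much on the log2(TPM + 1) scale.

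Its paralog LAPTM4B, often raised in carcinomas, had 95.16, 116.48 and 101.32 TPM in siControl and 6.68, 5.92 and 20.66 TPM in siVCPIP1. The 2 groups were again wide apart (log2 fold change -3.32, SE 0.39, limma, adjusted p = 6.1e-05). LAPTM4A made up 79.3% to 81.2% of the summed TPM of the pair in siControl and 54.8% to 58.8% in siVCPIP1. With GC content and length corrected for, LAPTM4B changed by more than LAPTM4A with the principal transcript (-3.35 against -2.91) and by less with the longest one (-1.62 against -2.96), so the order of the pair was not settled. The third member, LAPTM5, which is best known from blood cells, was low in all libraries, with 2.11 ± 0.164 TPM in siControl against 1.12 ± 0.303 TPM in siVCPIP1 (SD, n = 3). Its log2 fold change of -0.56 (limma, adjusted p = 0.0066) became 0.17 on the median-of-ratios scale and 0.82 on quantile-normalized values.

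LAMP1 (ENSG00000185896.10, chromosome 13, 113297241 to 113323672, plus strand), one of the most abundant proteins of the lysosomal membrane, had 176.44, 201.04 and 227.19 TPM in siControl. In siVCPIP1 it had 48.12, 41.14 and 71.27 TPM. It fell to 26.5% of its control mean (log2 fold change -1.92, SE 0.21, limma, adjusted p = 4.1e-05). LAMP2 (ENSG00000005893.15, chromosome X, 120427827 to 120469365, minus strand), which also acts in fusion with autophagosomes and in chaperone-mediated autophagy, had 21.37, 24.38 and 20.56 TPM in siControl. In siVCPIP1 it had 0.67, 0.85 and 2.0 TPM. LAMP2 kept 5.31% of its control mean (log2 fold change -3.46, SE 0.25, limma, adjusted p = 2.0e-05). LAMP1 made up 89.2% to 91.7% of the summed TPM of the pair in siControl and 97.3% to 98.6% in siVCPIP1. The transcripts of LAMP1 and LAMP2 have GC contents of 55.2% and 37.7%, and with GC content and length corrected for the changes were -1.28 and -1.16, so that the larger fall of LAMP2 was no longer seen.

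Among the cathepsins, the aspartyl protease CTSD rose while most cysteine cathepsins fell. Of 9 tested, 7 fell (77.8%) and 1 rose (11.1%), beside 66% and 15% of all genes tested, and CTSH, an aminopeptidase, was not called. Their median log2 fold change was -1.70. After median-of-ratios scaling 5 were lower and 3 higher (55.6% and 33.3%), where 45.1% and 40.3% of all genes were. On quantile-normalized values 7 were lower and 2 higher (77.8% and 22.2%), where 38.8% and 42.2% of all genes were. With GC content and length corrected for, 5 were lower and 1 higher (55.6% and 11.1%), where 31.7% and 37.2% of all genes were. CTSD (ENSG00000117984.13, chromosome 11, 1752752 to 1764573, minus strand), the most abundant cathepsin in every library, had 830.97, 684.34 and 642.20 TPM in siControl and 1134.50, 1091.49 and 895.48 TPM in siVCPIP1. The lowest siVCPIP1 library lay above the highest control. The mean was 719 ± 99.1 TPM in siControl and 1040.5 ± 127 TPM in siVCPIP1 (log2 fold change 0.53, SE 0.14, limma, adjusted p = 0.0079). The call was lost after correction for GC content and length (0.14, adjusted p = 0.28).

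CTSC (ENSG00000109861.15, chromosome 11, 88293592 to 88337787, minus strand), the dipeptidyl peptidase that activates serine proteases of granulocytes and killer cells, had 299.90, 356.19 and 242.72 TPM in siControl. In siVCPIP1 it had 20.41, 16.98 and 31.81 TPM. Its mean fell to 7.70% of the control level (log2 fold change -3.67, SE 0.24, limma, adjusted p = 2.0e-05), the largest change of any cathepsin tested. In siControl CTSC was the next most abundant cathepsin by mean TPM after CTSD (299.6 ± 56.7 TPM), and its values overlapped those of CTSA (276 ± 9.40 TPM). In siVCPIP1 (23.1 ± 7.76 TPM) it stood below CTSA, CTSZ and CTSB in every library.

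CTSL, an endopeptidase of the lysosomal lumen, had 67.98, 79.52 and 80.39 TPM in siControl and 8.69, 5.77 and 26.56 TPM in siVCPIP1. Replicate 3 of siVCPIP1 stood well above the other two of its group, and all 3 stood below the controls (log2 fold change -2.66, SE 0.44, limma, adjusted p = 0.00048). CTSV, its close paralog, fell from 9.71 ± 0.973 to 0.953 ± 0.461 TPM (SD, n = 3), and CTSK, the collagen-degrading cathepsin of osteoclasts, from 3.22 ± 0.243 to 0.320 ± 0.280 TPM. CTSV and CTSK kept 9.82% and 9.94% of their control means, but neither call held after correction for GC content and length (-0.31, adjusted p = 0.059, and 0.16, adjusted p = 0.20, limma).

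CTSB, a cysteine protease often raised in tumours, had 201.07, 227.02 and 240.74 TPM in siControl and 54.14, 55.52 and 97.29 TPM in siVCPIP1. It fell to 30.9% of its control mean (log2 fold change -1.73, SE 0.22, limma, adjusted p = 0.00011), a change of -0.64 with GC content and length corrected for. CTSZ, a carboxypeptidase, had 151.44, 170.82 and 184.89 TPM in siControl and 69.57, 67.21 and 115.92 TPM in siVCPIP1 (log2 fold change -1.04, limma, adjusted p = 0.0017), a direction that turned to 0.18 on the median-of-ratios scale. CTSA, the serine carboxypeptidase that also protects neuraminidase and beta-galactosidase in the lysosome, had 267.40, 273.62 and 285.87 TPM in siControl. In siVCPIP1 it had 181.86, 153.16 and 252.12 TPM. The groups lay close together for CTSA (log2 fold change -0.52, limma, adjusted p = 0.024), the call was lost without siControl replicate 2 or 3 or siVCPIP1 replicate 1 or 2 (adjusted p from 0.059 to 0.095), and the change was 0.70 on the median-of-ratios scale. CTSH averaged 2.90 ± 0.471 TPM in siControl against 2.67 ± 0.0850 TPM in siVCPIP1.

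The summed TPM of the 14 cathepsins moved less than its makeup. The sum was 1695 to 1835 TPM in siControl and 1394 to 1474 TPM in siVCPIP1. CTSD supplied 45.3%, 37.8% and 37.9% of it in siControl and 77.0%, 78.3% and 62.8% in siVCPIP1. CTSC supplied 14.3% to 19.7% in siControl and 1.22% to 2.23% in siVCPIP1, and CTSB 11% to 14.2% and 3.67% to 6.83%. For each of these shares the groups did not overlap. The CTSA share did overlap, at 14.6% to 16.9% and 11% to 17.7%. These shares were not corrected for GC content. The transcripts of CTSD and CTSC have GC contents of 64.0% and 45.2%. With GC content and length corrected for, their log2 fold changes were 0.14 and -1.63.

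**Figure D2:**
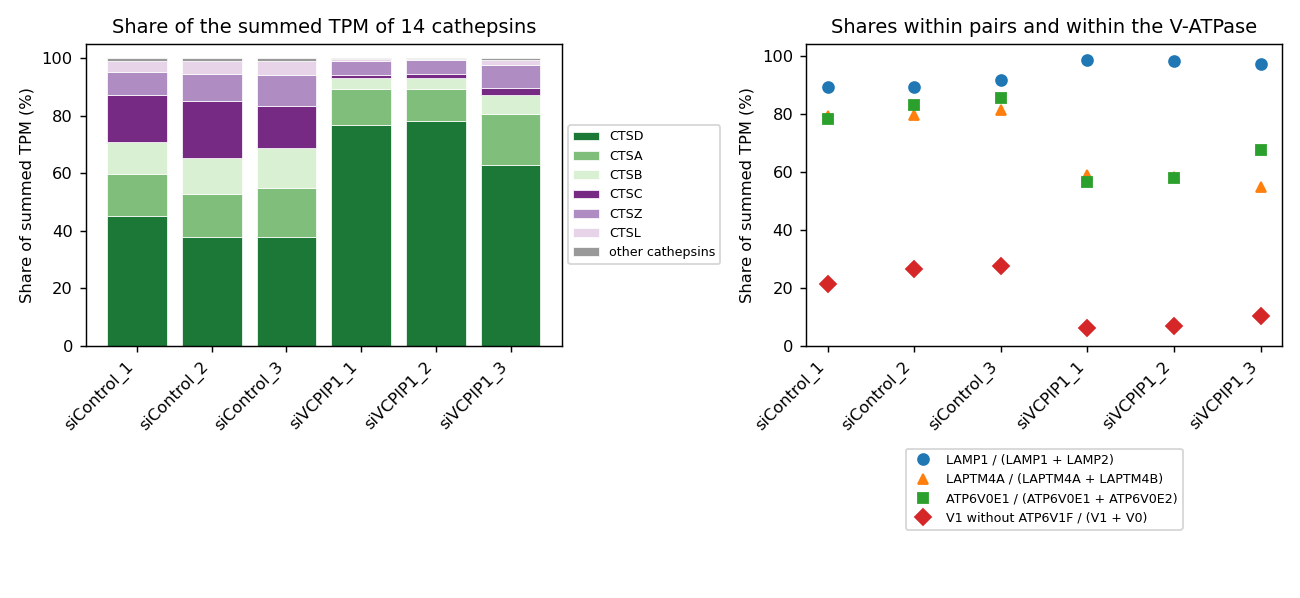
Left, the share (%) of each cathepsin in the summed TPM of the 14 cathepsins, as stacked bars for each of the 6 libraries. Right, shares (%) of LAMP1, LAPTM4A and ATP6V0E1 within their pairs and of V1 subunits other than ATP6V1F within all V-ATPase subunits, 1 point per library. ATP6V1F, left out of this V1 share, was the tested V1 subunit that rose. On the left, the CTSD share is 37.8% to 45.3% in siControl and 62.8% to 78.3% in siVCPIP1. Shares are not corrected for GC content.

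In the V-ATPase, the V1 sector fell apart from ATP6V1F, while the V0 sector went both ways. Of 8 tested V1 subunits, 7 fell and 1 rose (87.5% and 12.5%, beside 66% and 15% of all genes tested; median log2 fold change -2.10), with 6 lower and 1 higher on the median-of-ratios scale and 7 and 1 on quantile-normalized values. Of 7 tested V0 subunits, 2 fell, 2 rose (28.6% each) and 3 were not called (median -0.08), with 1 lower and 5 higher on the median-of-ratios scale and 1 and 3 on quantile-normalized values. Of all genes, 45.1% were lower and 40.3% higher on the median-of-ratios scale, and 38.8% and 42.2% on quantile-normalized values. The tested V1 subunits had a median transcript GC content of 45.4% and the V0 subunits one of 57.9%. After correction for GC content and length, 3 V1 subunits were lower and 1 higher (median -0.06), and 2 V0 subunits were lower and 4 higher (median 0.36), where 31.7% of the genes in the table that could be corrected were lower and 37.2% higher.

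ATP6V1A, the catalytic subunit that hydrolyses ATP (ENSG00000114573.9, chromosome 3, 113747019 to 113812056, plus strand), had 12.98, 16.75 and 12.04 TPM in siControl and 0.56, 0.53 and 1.61 TPM in siVCPIP1. It kept 6.46% of its control mean (log2 fold change -3.01, SE 0.25, limma, adjusted p = 2.0e-05). With GC content and length corrected for, the change was -0.83 (adjusted p = 0.00026). Its partner in the catalytic hexamer, ATP6V1B2, had 21.54, 24.46 and 27.81 TPM in siControl. In siVCPIP1 it had 4.65, 4.39 and 10.45 TPM, a log2 fold change of -1.86 (SE 0.30, adjusted p = 0.00040 by limma) that was 0.12 (adjusted p = 0.49) with GC content and length corrected for. The B1 form, ATP6V1B1, known from kidney and epididymis, was at 0.10 TPM or less in every library.

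ATP6V1H, a regulatory subunit needed for ATP hydrolysis to drive transport, had 20.11, 28.63 and 26.53 TPM in siControl and 1.29, 1.28 and 4.11 TPM in siVCPIP1, the furthest fall among the tested V1 subunits on the log2(TPM + 1) scale (log2 fold change -3.11, SE 0.33, limma, adjusted p = 3.8e-05). ATP6V1C1, the clamp subunit that detaches when the pump comes apart, fell from 12.1 ± 1.23 to 1.13 ± 0.488 TPM (SD, n = 3). The changes of ATP6V1H and ATP6V1C1 were -1.11 and -0.51 with GC content and length corrected for, and both stayed called. ATP6V1C2, the paralog of ATP6V1C1, lay under the filter, with 1.23 to 1.53 TPM in siControl and 0.00 to 0.13 TPM in siVCPIP1.

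ATP6V1G1 and ATP6V1E1 form the peripheral stalks that hold the head still. ATP6V1G1 had 60.74, 76.95 and 58.49 TPM in siControl and 8.96, 10.22 and 18.30 TPM in siVCPIP1 (log2 fold change -2.35, SE 0.26, limma, adjusted p = 4.4e-05). ATP6V1E1 had 149.90, 168.73 and 187.50 TPM in siControl and 56.87, 57.23 and 101.96 TPM in siVCPIP1. Its fall (log2 fold change -1.27, limma, adjusted p = 0.00082) was -0.05 on the median-of-ratios scale (adjusted p = 0.79). With GC content and length corrected for, ATP6V1G1 was no longer called with the principal transcript (-0.23, limma, adjusted p = 0.087). It stayed lower with the longest one (-0.32, limma, adjusted p = 0.030). ATP6V1E1 was higher after the correction (0.46, limma, adjusted p = 0.0030). Both supplied nearly all TPM of their subunit in both groups, from 97.4% to 98.9% for ATP6V1G1 over ATP6V1G2 and from 99.0% to 99.5% for ATP6V1E1 over ATP6V1E2.

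The central rotor joins ATP6V1D and ATP6V1F to the ATP6V0D1 subunit of V0, and these went in different directions. ATP6V1D had 32.42, 41.67 and 45.01 TPM in siControl and 8.30, 9.70 and 14 TPM in siVCPIP1 (log2 fold change -1.82, SE 0.22, limma, adjusted p = 8.2e-05). Its change was 0.21 (adjusted p = 0.15) with GC content and length corrected for. ATP6V1F (ENSG00000128524.4, chromosome 7, 128862826 to 128865844, plus strand) had 217.39, 203.44 and 187.09 TPM in siControl and 337.56, 302.64 and 358.26 TPM in siVCPIP1. It was the only tested V1 subunit to rise (log2 fold change 0.71, SE 0.12, limma, adjusted p = 0.00064). It made up 33.4% to 41.0% of the summed TPM of V1 in siControl and 70.0% to 80.5% in siVCPIP1. After correction for GC content and length the ATP6V1F change was 0.27 with the principal transcript (limma, adjusted p = 0.058). It was 0.44 with the longest one and stayed called (limma, adjusted p = 0.0053).

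ATP6V0D1 (ENSG00000159720.11, chromosome 16, 67438014 to 67481237, minus strand), which couples the rotor to the proton ring, had 138.76, 114.88 and 125.68 TPM in siControl and 268.69, 251.59 and 204.25 TPM in siVCPIP1. All 3 siVCPIP1 libraries lay above all controls, and the mean was 1.91 times that of siControl (log2 fold change 0.92, SE 0.15, limma, adjusted p = 0.00036). It was also the one gene of the 29 called higher with TPM as deposited and after both scalings that stayed so after correction with the principal transcript. The correction for GC content and length left it at 0.91 (limma, adjusted p = 0.0012). ATP6V0D2, its paralog, was at 0.08 to 0.50 TPM.

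ATP6V0C, which builds most of the proton ring, had 434.67, 374.94 and 347.87 TPM in siControl and 426.95, 375.99 and 456.74 TPM in siVCPIP1, and the groups overlapped (log2 fold change 0.12, SE 0.13, limma, adjusted p = 0.41). ATP6V0B, another ring subunit, also overlapped, with 225.53, 201.84 and 172.89 TPM in siControl and 176.22, 174.49 and 216.43 TPM in siVCPIP1 (log2 fold change -0.08, SE 0.15, adjusted p = 0.63). Both were higher on the median-of-ratios scale (1.35 and 1.15) and lower with GC content and length corrected for (-0.53 each), although ATP6V0B was at 0.53 when the longest transcript was taken. With CTSA, CTSD, ATP6V0D1 and ATP6V1F, they were the 6 most abundant of the 29 genes in every siVCPIP1 library.

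The small e subunit comes from a pair of genes that moved apart. ATP6V0E1 had 84.64, 103.16 and 108.51 TPM in siControl and 39.78, 40.71 and 60.24 TPM in siVCPIP1 (log2 fold change -1.08, SE 0.19, limma, adjusted p = 0.00076), although its change was 0.14 on the median-of-ratios scale and 1.0 with GC content and length corrected for. ATP6V0E2 had 23.84, 21.16 and 18.38 TPM in siControl and 30.76, 29.71 and 29.23 TPM in siVCPIP1 (log2 fold change 0.49, SE 0.16, limma, adjusted p = 0.019). The ATP6V0E2 call was lost without siControl replicate 2 or 3 or siVCPIP1 replicate 1 or 2 (limma, adjusted p from 0.053 to 0.080). With GC content and length corrected for, the ATP6V0E2 call was lost with the principal transcript (0.16, limma, adjusted p = 0.16). It held with the longest one (0.30, limma, adjusted p = 0.022). ATP6V0E1 supplied 78.0% to 85.5% of the pair in siControl and 56.4% to 67.3% in siVCPIP1. Their transcripts have GC contents of 44.1% and 60.6%.

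The a subunit, which lets protons in and out and directs the pump to its compartment, is encoded by ATP6V0A1, ATP6V0A2, TCIRG1 and ATP6V0A4. The name pattern does not catch TCIRG1. It would catch ATP6V0A4, which is not among the deposited gene symbols. TCIRG1 was the main form of the other three, at 88.4% to 90.2% of their summed TPM in siControl and 93.9% to 96.1% in siVCPIP1. ATP6V0A1 was at 17.87, 15.41 and 16.87 TPM in siControl and at 14.68, 11.85 and 15.49 TPM in siVCPIP1, and was not called (log2 fold change -0.25, limma, adjusted p = 0.23). It was higher on the median-of-ratios scale (0.91), quantile normalization (1.02) and correction for GC content and length (1.30). ATP6V0A2, the Golgi form, fell from 2.89 ± 0.530 to 0.367 ± 0.0702 TPM (SD, n = 3; log2 fold change -1.5, limma, adjusted p = 2.3e-05), and lay at 0.36 after that correction.

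The summed TPM of the 12 V1 subunits was 529.6 to 577 in siControl and 388 to 512 in siVCPIP1, and that of the 8 V0 subunits 793 to 928 and 885 to 983. V1 as a whole held 36.3%, 40.9% and 41.4% of all V-ATPase TPM in siControl and 30.5%, 30.5% and 34.2% in siVCPIP1. Without ATP6V1F, the only tested V1 subunit to rise, V1 held 21.4%, 26.5% and 27.5% in siControl and 5.95%, 6.69% and 10.3% in siVCPIP1. Leaving out the gene that rose makes this second difference larger by construction. The shares were not corrected for GC content, which differs between V1 and V0. The tested V1 subunits apart from ATP6V1F ranged from 12.1 to 169 TPM in siControl and from 0.900 to 72.0 TPM in siVCPIP1, as group means.

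The 11 genes under the filter never exceeded 1.53 TPM. They were ATP6V1B1, ATP6V1C2, ATP6V1E2, ATP6V1G2, ATP6V0D2, ATP6V1FNB, CTSE, CTSF, CTSO, CTSS and CTSW. CTSS, a cathepsin of antigen-presenting cells, had 0.42 to 0.66 TPM in siControl against 0.13 to 0.21 TPM in siVCPIP1, and CTSW, of killer cells, at 0.00 to 0.20 TPM throughout. CTSE, an aspartyl protease of the stomach, was at 0.36 TPM or less.

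The changes followed the GC content of the transcripts, as they did over all genes. Across the 29 genes, log2 fold change and transcript GC content had a Pearson's r of 0.70 and a Spearman's rho of 0.71, and across 10917 tested genes with a GC value 0.72 and 0.74. These points share their 6 libraries and are genes, not replicates. Of the 7 genes under 45% GC, all fell, as did 97.4% of all tested genes in that range. Between 45% and 55%, 11 of 13 fell and 0 rose, where 78.1% of all genes fell and 5.18% rose. At 55% and above, 3 of 9 fell and 4 rose, where 26.7% of all genes fell and 37.2% rose.

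**Figure D3:**
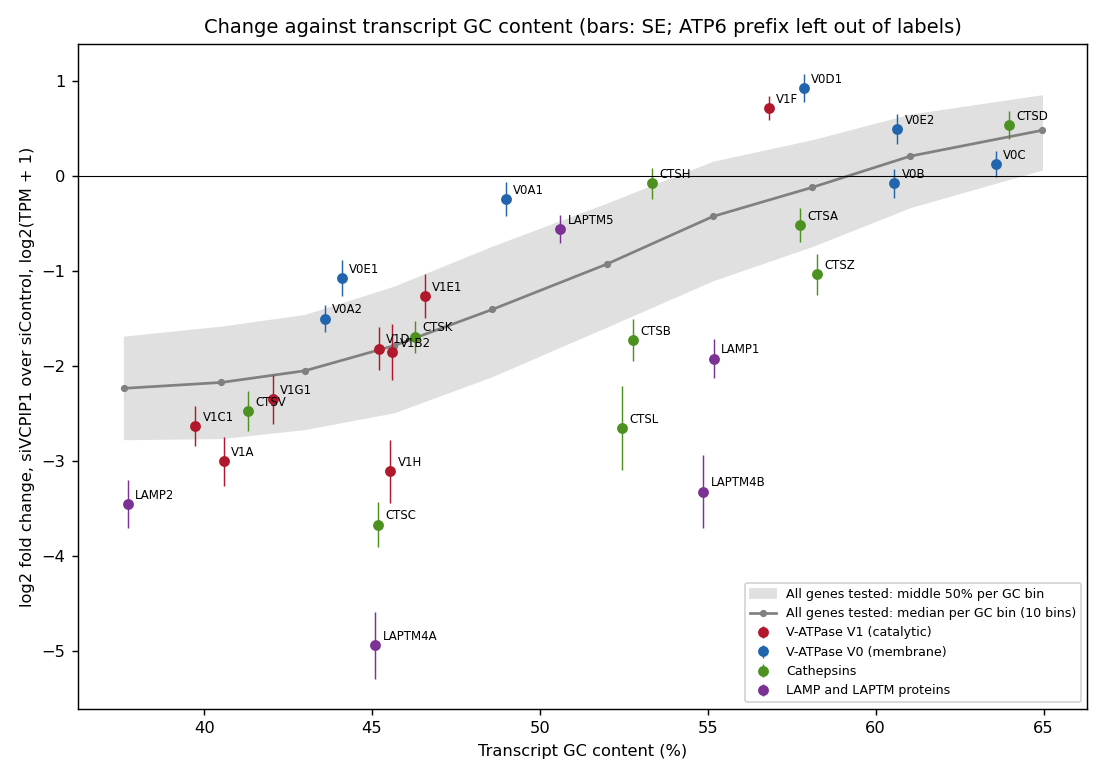
Log2 fold change on log2(TPM + 1) against transcript GC content (%) for the 29 tested genes (bars: SE) with the median and the middle 50% of all tested genes in 10 GC bins. Among others, LAPTM4A, LAPTM4B, CTSC, CTSL and LAMP1 lie well below the grey line, and ATP6V0D1 and ATP6V1F above it.

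LAPTM4A, CTSC, CTSL, LAMP1 and LAPTM4B were among those that stood lower than other genes of like GC content. CTSZ, LAMP2 and ATP6V1H also stood lower, at -1.19, -1.16 and -1.11 with GC content and length corrected for. When each library's smooth trend on transcript GC content and length was removed, 14 of the 29 were lower and 7 higher, against 31.7% lower and 37.2% higher among all genes. The corrected log2 fold change was -2.91 for LAPTM4A, -1.63 for CTSC, -1.72 for CTSL and -1.28 for LAMP1. That of LAPTM4B was -3.35 with the principal transcript, which is 915 nt long, and -1.62 with the longest one of 3173 nt, so its size depends on the transcript taken. ATP6V1E1, ATP6V0E1, ATP6V0A2 and LAPTM5, which fell with TPM as deposited, were higher after the correction (0.46, 1.0, 0.36 and 0.69). With the longest transcript ATP6V0A2 was at 0.34 and was not called (limma, adjusted p = 0.0504).

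Both scalings centre the libraries on each other. With them, 16 were lower and 9 higher on the median-of-ratios scale, where 45.1% and 40.3% of all genes were. After quantile normalization 19 were lower and 7 higher, where 38.8% and 42.2% of all genes were. The median of all genes moved to -0.14 and 0.04, and that of the 29 to -0.65 and -0.77. Lower with TPM as deposited, after both scalings and after the GC and length correction were 10 of 29 (34.5%), against 21.3% of all genes. These were LAMP2, CTSC, ATP6V1A, CTSL, LAPTM4A, ATP6V1H, LAPTM4B, ATP6V1C1, LAMP1 and CTSB. ATP6V0D1 alone was higher in all 4 (3.45%, against 10.8%). When the GC and length correction took the longest transcript, ATP6V0E2 and ATP6V1F were also higher in all 4. ATP6V1G1 was then also lower in all 4.

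**Figure D4:**
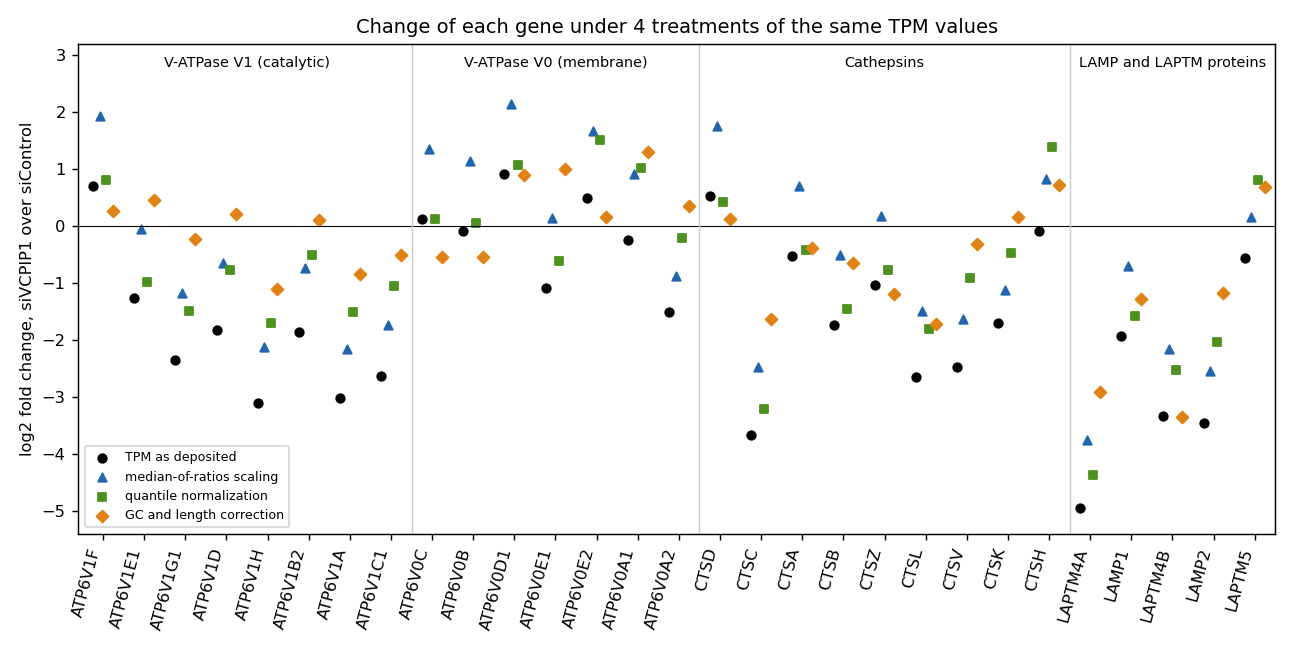
Log2 fold change (siVCPIP1 over siControl) of the 29 tested genes with TPM as deposited and on the median-of-ratios scale, quantile normalization, and GC and length correction. ATP6V0D1 lies above 0 with all 4 and LAPTM4A lies lowest in 3 of the 4, while ATP6V0E1, ATP6V0A1, CTSH and LAPTM5 change sides.

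The genes with CACGTG in the printed windows did not share a direction. With TPM as deposited, CTSD, ATP6V0D1 and ATP6V0E2 rose, LAMP1, CTSA and ATP6V1G1 fell, and ATP6V0B was not called. Of all genes tested, 66% were lower and 15% higher. CTSA and ATP6V0B were higher on the median-of-ratios scale (0.70 and 1.15). With GC content and length corrected for, the calls of CTSD, ATP6V0E2 and ATP6V1G1 were lost with the principal transcript. Those of ATP6V0E2 and ATP6V1G1 held with the longest one. LAMP1 and ATP6V0D1 kept their direction and call under both scalings and that correction. CTSF, which also holds the motif, lay under the filter. Among the factors that bind it, TFEB rose from 4.05 ± 0.840 to 5.99 ± 0.173 TPM (SD, n = 3; log2 fold change 0.48, limma, adjusted p = 0.043), which was no call once GC content and length were corrected for (0.19, adjusted p = 0.12) and without siControl replicate 2 or 3 or siVCPIP1 replicate 1 or 2 (adjusted p from 0.077 to 0.18), and USF2 rose from 85.8 ± 9.10 to 139.6 ± 7.78 TPM. Their relatives TFE3 (47.0 ± 3.02 and 52.2 ± 8.74 TPM) and USF1 (41.2 ± 1.47 and 47.9 ± 7.19 TPM) were not called (limma, adjusted p = 0.45 and 0.26), though both were higher under each scaling and with GC content and length corrected for. MITF did not exceed 0.04 TPM.

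Other lysosomal genes were read from 7 lists by role. Pooled, 78 of 126 tested genes fell and 16 rose, 61.9% and 12.7% beside 66% and 15% of all genes tested, so that the pooled shares were near the background. On the median-of-ratios scale 49 were lower and 55 higher (38.9% and 43.7%, beside 45.1% and 40.3% of all genes). On quantile-normalized values the counts were 48 and 60 (38.1% and 47.6%, beside 38.8% and 42.2% of all genes). With GC content and length corrected for they were 43 and 46 (34.1% and 36.5%, beside 31.7% and 37.2% of all genes). The same all-gene shares apply to each list below. Of 42 soluble hydrolases and their activators, 28 fell and 4 rose (66.7% and 9.52%, near the background; median log2 fold change -1.0, against -1.12 for all genes), with 16 and 17 on the median-of-ratios scale and 19 and 17 on quantile-normalized values. The carboxypeptidase SCPEP1 fell from 46.4 ± 9.60 to 2.98 ± 1.89 TPM and acid ceramidase ASAH1 from 41.4 ± 4.63 to 3.50 ± 1.28 TPM. The dipeptidyl peptidase DPP7 rose from 188 ± 37.0 to 426 ± 87.4 TPM, IDUA from 6.85 ± 1.31 to 13.8 ± 2.83 TPM, NAGLU from 31.4 ± 3.27 to 44.8 ± 4.90 TPM and ARSA from 34.3 ± 6.79 to 46.9 ± 4.86 TPM (SD, n = 3 each). The NAGLU call was lost without siControl replicate 2 or 3 or siVCPIP1 replicate 1, and the ARSA call without those or siVCPIP1 replicate 2 (adjusted p from 0.053 to 0.15). Both were lost with GC content and length corrected for (NAGLU 0.18, adjusted p = 0.12; ARSA -0.04, adjusted p = 0.73).

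Of 25 other lysosomal membrane and positioning genes, 13 fell and 2 rose (52% and 8%, beside 66% and 15% of all genes; median -0.54), with 8 and 14 on the median-of-ratios scale and 6 and 14 on quantile-normalized values. The cholesterol exporter NPC1 fell from 21.2 ± 1.41 to 2.53 ± 1.42 TPM, SCARB2, the receptor that carries glucocerebrosidase, from 51.03 ± 6.75 to 8.27 ± 3.84 TPM, and LITAF from 17.1 ± 1.67 to 2.38 ± 1.23 TPM. PLEKHM1, a tether for fusion with lysosomes, and PLEKHM2, a kinesin adaptor, rose from 35.8 ± 0.969 to 51.2 ± 2.45 TPM and from 37.1 ± 3.83 to 53.9 ± 3.23 TPM.

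Of 20 genes that sort enzymes to the lysosome, 15 fell and 0 rose (75% and 0%, beside 66% and 15% of all genes; median -1.76), with 12 lower and 5 higher under each of the 2 scalings and 11 and 5 with GC content and length corrected for. AP3B1 and AP3S1, subunits of the adaptor that carries membrane proteins to lysosomes, went down from 26.2 ± 1.97 to 1.29 ± 0.725 TPM and from 89.04 ± 10.7 to 10.4 ± 7.32 TPM, and the retromer subunit VPS26A from 28.7 ± 3.24 to 2.64 ± 1.28 TPM.

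Of 13 tested accessory and assembly genes of the V-ATPase, 8 fell and 3 rose (61.5% and 23.1%, beside 66% and 15% of all genes; median -0.91), with 4 and 6 on the median-of-ratios scale and 4 and 7 on quantile-normalized values. With GC content and length corrected for, 3 were lower and 5 higher. ATP6AP2, the prorenin receptor and a V0 component, fell from 33.5 ± 5.29 to 2.01 ± 0.982 TPM, OXR1 from 9.02 ± 2.0 to 0.903 ± 0.280 TPM and the assembly factor CCDC115 from 13.9 ± 1.67 to 2.16 ± 1.83 TPM. RNASEK, a small V0 partner, rose from 563 ± 68.7 to 1137 ± 263 TPM, TCIRG1 from 167 ± 21.7 to 287 ± 37.2 TPM and ROGDI from 16.2 ± 1.66 to 22.4 ± 1.49 TPM. The ROGDI call was lost without siControl replicate 2 or 3 or siVCPIP1 replicate 1 or 2 (adjusted p from 0.083 to 0.11). With GC content and length corrected for, the calls of OXR1 (-0.14, adjusted p = 0.34), RNASEK (0.28, adjusted p = 0.055) and ROGDI (-0.11, adjusted p = 0.32) were lost.

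Of 12 genes of mTORC1 and its lysosomal platform, 7 fell and 3 rose (58.3% and 25%, beside 66% and 15% of all genes; median -1.30), with 7 and 5 on the median-of-ratios scale and 5 and 6 on quantile-normalized values. The activating GTPase RHEB fell from 136 ± 21.1 to 9.82 ± 8.41 TPM, and the Rag GTPases RRAGC and RRAGA from 18.1 ± 1.01 to 2.0 ± 0.887 TPM and from 25.4 ± 5.66 to 3.60 ± 2.66 TPM. LAMTOR4, MLST8 and LAMTOR2 rose, with log2 fold changes of 1.26, 0.97 and 0.47. With GC content and length corrected for, the LAMTOR2 call was lost (-0.08, limma, adjusted p = 0.51). After that correction 6 of the 12 were lower and 3 higher, where 31.7% and 37.2% of all genes were.

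Of 9 tested regulators, 5 fell (55.6%), among them FNIP1, FLCN, ZKSCAN3 and FNIP2, and TFEB and USF2 rose (22.2%), beside 66% and 15% of all genes, with 1 lower and 5 higher on the median-of-ratios scale and 0 and 8 on quantile-normalized values. FLCN, which holds TFEB in the cytoplasm through the Rag GTPases, fell from 17.3 ± 1.53 to 8.36 ± 2.69 TPM, but its change was 0.13 and 0.40 after the scalings. The FNIP2 call (-0.37) was lost without any one library but siVCPIP1 replicate 2 (adjusted p from 0.055 to 0.15). With GC content and length corrected for, 2 of the 9 were lower and 5 higher, where 31.7% and 37.2% of all genes were. Under that correction ZKSCAN3 (1.08, limma, adjusted p = 0.00028) and FNIP2 (1.51, limma, adjusted p = 0.00024) were higher. FNIP1 was then at 0.26 and not called (limma, adjusted p = 0.089). ZKSCAN3 and FNIP2 were also higher on quantile-normalized values (0.66 and 1.03).

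Of 5 tested protease inhibitors of the cystatin and serpin families, 2 fell and 2 rose (40% each, beside 66% and 15% of all genes), with 1 and 3 on the median-of-ratios scale and 2 and 3 on quantile-normalized values. The secreted cathepsin inhibitor CST3 rose from 561 ± 113 to 1151 ± 234 TPM and SERPINB6 from 263 ± 33.3 to 356 ± 41.0 TPM. CSTB, the cytosolic relative of CST3, fell from 2902 ± 198 to 1203 ± 364 TPM, though it was at -0.08 on the median-of-ratios scale, and SERPINB1 fell from 169 ± 15 to 53.4 ± 23.9 TPM (SD, n = 3 each). The SERPINB6 call was lost without siControl replicate 1 or 2 or siVCPIP1 replicate 1 or 2 (adjusted p from 0.052 to 0.084), and SERPINB1 was higher with GC content and length corrected for (0.35).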

How the data were processed

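The authors deposited TPM per gene symbol with 2 decimals for 6 libraries, as the column names state. The submitters' processing notes name GRCh38.p13. Aligner, counting tool, annotation and strand setting: not given in the sources used here. Genes averaging 1 TPM or more were compared on log2(TPM + 1) with limma 3.58.1 in R 4.3.3 (with trend; two-sided; no covariates), and p-values were adjusted by Benjamini-Hochberg across 10966 genes, at a threshold of 0.05. A fold change on this scale understates the change of low genes. The fit was tested on simulated data in which few genes changed, evenly up and down. That test does not cover a shift of most genes, as seen between these groups. GC content, length and gene positions were those of a principal protein-coding transcript in GENCODE 29 (GRCh38), found for 99.6% of tested genes. The GC correction removed natural splines of GC content (5 degrees of freedom) and log2 length (3) and their product. Genes were given by rule: a mean of at least 20 TPM, or every V-ATPase paralog of at least 1 TPM, with every library's value, and up to 3 called genes per list and direction, of which some are not reported here. Group means stand for lower paralogs. LAPTM5, CTSV, CTSK and CTSH and the genes under the filter were named to account for all 40. All members and lists were chosen with earlier results of these data known. Depth is unknown, so no counting interval is given. Alternatives were other scalings, filters and pseudocounts, the GC correction, a replicate block and leaving out each library.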

Additional observations from a re-analysis of the deposited data

How the results depend on the processing

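Direction and call of all genes named among the 29 held with a pseudocount of 0.1, without a filter, with a filter at 5 TPM (25 genes left) and with the replicate block. The labels do not say whether same-numbered libraries were paired. Deviations of same-numbered libraries from their group means correlated with r = 0.53, -0.27 and 0.16. With 3 libraries per group these deviations sum to 0 within a group, so the correlations cannot settle the pairing. The block left 21 lower and 4 higher of the 29. In the related lists TFEB and FNIP2 lost their calls with the block (limma, adjusted p = 0.097 and 0.088), and also without a filter and with a pseudocount of 0.1, ARSA lost its call without a filter, and TFEB with the filter at 5 TPM. Leaving out each library in turn gave 20 to 22 lower and 3 to 4 higher, medians of -1.86 to -1.58, 6532 to 7853 lower and 1237 to 1845 higher over all genes, and 74 to 88 lower and 11 to 18 higher in the related lists. ATP6V0B ranged from -0.18 to 0.0099 (without siControl replicate 1) and CTSH from -0.16 to 0.012 (without siControl replicate 3), never called, and ATP6V0A1 was called lower without siVCPIP1 replicate 3 (-0.32, limma, adjusted p = 0.043). The GC correction was repeated, after the data were seen, with a pseudocount of 0.1 and with the longest transcript; its values follow in the order planned, pseudocount, longest, and adding the block to it changed only counts. All genes: 3464, 3386 and 3518 lower (3483 with the block), and 4063, 3934 and 4059 higher (4040 with the block); quantile normalization gave 4258 lower and 4625 higher, median-of-ratios scaling 4416 higher, and the filter at 5 TPM 4679 lower. The 29: 7, 8 and 9 higher (7 with the block), with medians of -0.31, -0.39 and -0.31; median-of-ratios scaling gave 9 higher and -0.65, quantile normalization 7 and -0.77, and no filter a median of -0.84 over 40. Related lists: 43, 37 and 42 lower (40 with the block) and 46, 41 and 42 higher (44 with the block); the median-of-ratios scale had 49 lower and 55 higher, quantile-normalized values 48 and 60. Signs turned under the GC correction, in the same order, for ATP6V0A1 (1.30, 1.58, 0.96), ATP6V0C (-0.53, -0.58, -0.57), ATP6V1D (0.21, 0.48, 0.16), CTSH (0.72, 0.82, 0.67), ATP6V1E1 (0.46, 0.71, 0.40), ATP6V1B2 (0.12, 0.39, 0.078), LAPTM5 (0.69, 0.56, 0.64) and ATP6V0E1 (1.0, 1.32, 0.93). They turned under the planned and longest forms for CTSK (0.16, 0.11) and ATP6V0A2 (0.36, 0.34), with the pseudocount for ATP6V1G1 (0.015) and with the longest transcript for ATP6V0B (0.53). Under median-of-ratios scaling ATP6V0A1 (0.91), CTSA (0.70), CTSH (0.82), CTSZ (0.18), LAPTM5 (0.17), ATP6V0B (1.15) and ATP6V0E1 (0.14) turned, and under quantile normalization ATP6V0A1 (1.02), CTSH (1.40), LAPTM5 (0.82) and ATP6V0B (0.059). Among other named genes, signs turned under the GC correction in its 3 forms for ARSA (-0.043, -0.062, -0.087), FNIP1 (0.26, 0.21, 0.25), FNIP2 (1.51, 2.02, 1.49), ROGDI (-0.11, -0.12, -0.16), SERPINB1 (0.35, 0.78, 0.32), ZKSCAN3 (1.08, 1.13, 1.03) and LAMTOR2 (-0.081, -0.14, -0.14), under 2 of them for VCPIP1 (0.27, 0.28 with the longest transcript) and with the pseudocount for SCARB2 (0.0096). FLCN (0.13), FNIP2 (0.42) and ZKSCAN3 (0.0089) turned on the median-of-ratios scale, and FLCN (0.40), FNIP2 (1.03) and ZKSCAN3 (0.66) on quantile-normalized values. The cause was not tested.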
